A study of Homo sapiens with 8 samples.

Results

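Wide internal peaks of protein-coding genes are stretches of RNA signal at least 600 bp wide that lie inside a gene, away from its ends. The authors deposited counts for 31395 genomic intervals (peaks) from acRIP-seq, in which RNA fragments are pulled down with an antibody against N4-acetylcytidine (ac4C) and sequenced. A peak was taken as wide and internal when it overlapped the span of exactly 1 protein-coding gene on GRCh38, lay more than 500 bp from both ends of that span and was 600 bp or wider. By this rule 711 of the 31395 peaks (2.26%) were members, in 454 genes. They made up 5.27% of the 13479 internal peaks of any width. The gene table gives spans and not exons, so whether a member lies in an exon or an intron was not analysed here.

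N4-acetylcytidine is a cytidine carrying an acetyl group on its base, and NAT10 is the enzyme known to write it in human RNA. The mark is long known in ribosomal RNA and transfer RNA and has since been mapped in messenger RNA, where it has been linked to mRNA stability and translation. In ribosomal and transfer RNA the modified base sits in a CCG setting, and repeats of CNN have been described around mapped mRNA sites. Poly(A)-selected RNA is mostly spliced mRNA, in which internal exons are usually short.

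The samples come from the human osteosarcoma (bone tumour) cell lines 143B and HOS, and 143B was derived from HOS. Each line has a control labelled NC and a NAT10 knockout labelled sgNAT10. Each combination of line and genotype has 1 acRIP library, so the lines are the only repeats. The guide RNAs, and whether a knockout was a clone or a pool of cells, are not given in the sources used here, and the input libraries listed in the labels were not used here.

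Few members reach an annotated transcription start, although all lie away from the ends of the gene span they were assigned to. In a RefSeq GRCh38 table of 35116 windows, each with 250 bases before and 50 after a transcript start, 16 windows overlapped 15 members and 9 windows lay wholly inside 7 members. Of the 16, 8 windows belonged to the member's own gene (8 members of LIG4, DICER1, CRIP2, ABR, FAM240C, UCKL1 and PGCKA1), as starts of alternative transcripts, and 8 belonged to another transcript, mostly antisense or uncharacterised. A few windows are shown because the reference held no sequence of whole members, on the strand of the transcript that starts there. Capitals mark matches on the printed strand to a motif of 4 CNN triplets in a row (C followed by any 2 bases). The following windows come from a CRIP2 member, from a LAMA5 member at the start of the antisense transcript LAMA5-AS1, from an ARID1B member at the start of LOC115308161, and from a UCKL1 member.
CRIP2 window, chr14:105475609-105475908, plus strand: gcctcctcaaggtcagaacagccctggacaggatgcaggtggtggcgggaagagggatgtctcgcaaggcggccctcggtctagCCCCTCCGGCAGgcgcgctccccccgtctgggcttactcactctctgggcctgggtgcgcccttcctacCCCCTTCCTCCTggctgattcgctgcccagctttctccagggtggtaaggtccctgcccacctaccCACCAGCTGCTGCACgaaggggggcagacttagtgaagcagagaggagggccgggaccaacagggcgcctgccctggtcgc
LAMA5-AS1 window, chr20:62352760-62353059, plus strand: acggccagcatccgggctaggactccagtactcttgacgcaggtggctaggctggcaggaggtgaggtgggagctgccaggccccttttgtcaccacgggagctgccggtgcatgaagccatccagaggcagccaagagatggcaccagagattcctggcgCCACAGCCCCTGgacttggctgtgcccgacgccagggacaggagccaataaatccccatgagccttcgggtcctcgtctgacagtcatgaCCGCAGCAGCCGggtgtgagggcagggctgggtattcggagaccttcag
LOC115308161 window, chr6:156778469-156778768, minus strand: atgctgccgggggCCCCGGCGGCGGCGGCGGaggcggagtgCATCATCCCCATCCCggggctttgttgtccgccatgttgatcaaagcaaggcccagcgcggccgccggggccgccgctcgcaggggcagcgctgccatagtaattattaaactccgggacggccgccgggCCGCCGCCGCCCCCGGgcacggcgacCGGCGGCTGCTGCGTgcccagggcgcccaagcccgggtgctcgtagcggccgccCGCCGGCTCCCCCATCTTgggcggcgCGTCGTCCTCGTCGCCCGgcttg
UCKL1 window, chr20:63951138-63951437, minus strand: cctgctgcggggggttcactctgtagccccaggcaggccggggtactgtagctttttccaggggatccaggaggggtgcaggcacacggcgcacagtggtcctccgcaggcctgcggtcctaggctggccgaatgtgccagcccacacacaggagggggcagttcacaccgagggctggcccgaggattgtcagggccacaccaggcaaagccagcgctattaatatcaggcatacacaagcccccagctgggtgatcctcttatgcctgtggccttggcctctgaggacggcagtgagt

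The 9 whole windows had a median G+C share of 64.3%, from 60.0% to 76.7%, beside a median of 58.7% over all 35116 windows (quartiles 47.0% and 68.0%). The motif occurred on either strand in 9 of the 9 windows, and in 90.3% of all windows, so its presence sets none of them apart. On the printed strand the motif had a median of 1 match, beside 2 in all windows, and CCG occurred a median of 6 times, beside 4. The window inside the ARID1B member stood at the top of the 9 for the motif, with 17 matches on the printed strand and 18 on the other, and held 21 CCG. A match describes these letters only and is not a modified site.

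A single microRNA of the RefSeq table lay inside a member. The peak at chr5:180015302-180016279 in RNF130, which encodes a RING finger ubiquitin ligase, covered the hairpin of miR-340 on the minus strand. The mature sequences are shown with the seed (bases 2 to 8) in capitals.
hsa-miR-340-5p: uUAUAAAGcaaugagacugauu
hsa-miR-340-3p: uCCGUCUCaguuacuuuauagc
In 143B this peak held 112 counts (NC) and 177 counts (labelled sgNAT10), and in HOS 103 and 282. The HOS library labelled sgNAT10 was the highest, and the other libraries lay between 103 and 177. These counts are not scaled for library size. After scaling, the log2 difference (labelled sgNAT10 minus NC) was 0.16 in 143B and 1.10 in HOS.

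The libraries held between 20107718 counts in peaks (143B NC) and 24785306 (HOS NC), which is less than their sequencing depth, and TMM scaling factors ran from 0.731 to 1.26. Of the 4, 143B labelled sgNAT10 was the least like the rest: over the members its Spearman correlation with the other libraries was 0.749, 0.644 and 0.5, against 0.796 to 0.92 among the others. The peak over NAT10 itself, which lies near the end of its gene and is no member, had 65 counts (NC) and 130 counts (labelled sgNAT10) in 143B, but 180 and 63 in HOS. It was higher in the 143B library labelled sgNAT10 and lower in the HOS one than in NC. The site cut in NAT10 is not given in the sources used here, so this peak does not check the labels, and libraries are named by them. Of 7 mesenchymal markers, VIM, SPARC, RUNX2 and CD44 had peaks, whereas COL1A1, COL1A2 and FN1 had none. The summed level of those with peaks was 284 to 1020 CPM, most of it from VIM (246 to 921 CPM). RUNX2 was at 2.41 to 12.7 CPM. Of the markers of other cell types, CDH1 was the only epithelial marker with a peak (35.1 CPM in HOS labelled sgNAT10 and at most 1.5 elsewhere), PTPRC the only blood marker (at most 0.78 CPM) and VWF the only endothelial marker (at most 3.05 CPM). The part of these differences in the results below was not tested.

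The median width of the members was 1015 bp (quartiles 752 and 1785), beside 135 bp over all peaks. Of the 711, 362 were at least 1000 bp wide, 155 at least 2000 bp and 16 at least 5000 bp. The depth behind a member was moderate. Its mean count over the libraries had a median of 225.5 (quartiles 119 and 570.9), ran from 23.2 to 53501.2, and was 100 or more for 575 members. No member was at 0 in any library.

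The level of the members differed mainly between the libraries labelled sgNAT10. Below, 4 values of a peak stand in a fixed order: NC and then labelled sgNAT10 of 143B, followed by the same pair of HOS. Members held 3.03%, 1.16%, 1.83% and 4.77% of all peak counts in these libraries. Their median level, in TMM-scaled CPM per kilobase of peak (CPM per kb), was 9.49, 2.93, 7.67 and 15.3. Over all peaks it was 6.06, 6.82, 4.69 and 7.56. HOS labelled sgNAT10 was the highest library for 496 members (69.8%), beside 24.6% of all peaks. 143B labelled sgNAT10 was the lowest library for 600 members (84.4%), beside 27.8% of all peaks. Between the controls the gap was small, with a median log2 difference of 0.28 (143B over HOS) and 483 members higher in 143B. Between the libraries labelled sgNAT10 the median log2 difference was 2.78 (HOS over 143B), with 633 members higher in HOS. These differences between lines were not computed over all peaks.

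**Figure D1:**
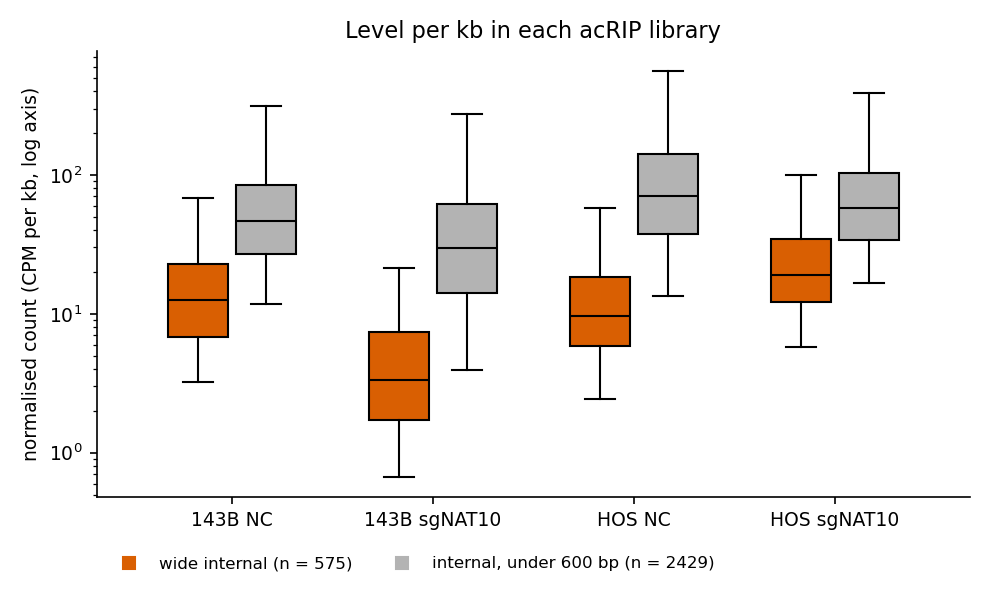
Normalised count in CPM per kb (log axis) in each acRIP library, for the 575 wide internal peaks (orange) and the 2429 narrower internal peaks (grey) with a mean count of 100 or more. Boxes are quartiles with the median, and whiskers run from the 5th to the 95th percentile. The wide peaks have medians of 12.5, 3.34, 9.61 and 18.9 CPM per kb from left to right, and the narrower peaks 46.4, 29.6, 70.6 and 57.3.

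A few members dominated the counts. The 10 members with the most counts in a library held 37.4%, 43.1%, 37.0% and 31.3% of the member counts. The 4 with the highest level per kb all overlapped nuclear copies of mitochondrial genes: a pair in LOC102724250 over MTND2P28 and over MTATP6P1, MTATP8P1 and MTCO3P12, and a pair in PCBD2 over pseudogenes of MT-CYB and NADH dehydrogenase subunits. The tables hold no peak on the mitochondrial chromosome, and whether reads of mitochondrial RNA were placed on these near-identical copies was not tested, so the values are uncertain as values of the host gene. The first LOC102724250 peak held 40111, 17062, 31582 and 54150 counts. The wider PCBD2 peak held 65824, 36093, 41434 and 70654. Per kb and scaled, the levels were 2042, 615, 1772 and 2382 CPM in the former and 1168, 453, 810 and 1083 CPM in the latter. In both, the 143B library labelled sgNAT10 was the lowest, while the highest was HOS labelled sgNAT10 in the former and 143B NC in the latter. In all there were 5 such members, and they held 20.4% to 33.9% of the member counts of a library.

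Next in level came SERINC2, a membrane protein of the serine incorporator family, at chr1:31431177-31432400, with 832, 241, 586 and 764 CPM per kb. AFAP1, which encodes an actin filament associated protein, followed at chr4:7863235-7864309 with 404, 95.3, 214 and 379 CPM per kb. UBASH3B, a tyrosine phosphatase, had 132, 60.4, 117 and 150 CPM per kb. In these 3 genes the 143B library labelled sgNAT10 was again the lowest, and the other libraries lay within 2-fold of one another. The top 10 also held 3 genes for RNA-binding proteins. HNRNPA2B1 had 133, 155, 161 and 106 CPM per kb, so that HOS labelled sgNAT10 was its lowest library. KHSRP, a factor in the decay of AU-rich mRNA, had 113, 35.3, 182 and 121 CPM per kb, and HNRNPA3 had 119, 62.1, 119 and 123, both lowest in 143B labelled sgNAT10.

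Within each line the shift of a peak is the log2 CPM of the library labelled sgNAT10 minus that of NC. With 1 library per group there is no test within a line, so shifts are given with 95% intervals that cover counting error only. Members were mostly lower in 143B and mostly higher in HOS. The median shift was -1.89 in 143B (quartiles -2.61 and -1.15) and 0.95 in HOS (quartiles 0.461 and 1.497), beside 0.28 and 0.36 over all peaks. In 143B, 554 members were lower by 2-fold or more, where 18.9% of all peaks were, and 44 were higher by 2-fold or more, where 28.9% of all peaks were. In HOS, 334 members were higher by 2-fold or more (28.5% of all peaks) and 0 were lower by 2-fold or more (9.39% of all peaks). The counting interval lay below 0 for 601 members in 143B and above 0 for 67, and in HOS it lay above 0 for 589 and below 0 for 24. Such intervals were not computed for all peaks, so these counts have no background. They also depend on depth: the median mean count was 225.5 for members and 23.5 for all peaks. Median half-widths of these intervals were 0.37 in 143B and 0.29 in HOS.

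Taken by sign, 581 members (81.7%) were down in 143B and up in HOS, beside 25.6% of all peaks. Another 76 members were higher in both lines (37.5% of all peaks), 47 were lower in both (15.7%) and 7 had the reverse of the main pattern, up in 143B and down in HOS (19.3%). By at least 2-fold in each line, 264 members were down in 143B and up in HOS, where 6.18% of all peaks were. The sign rests partly on scaling. It was the same under TMM, DESeq2-type and upper quartile factors and library totals for 692 members in 143B and 643 in HOS, and the opposed group held 564 to 607 members under the other scalings. The smaller groups moved more: 67 to 95 members were higher in both lines, 7 (library totals) to 66 (DESeq2-type factors) lower in both, and 2 to 12 had the reverse pattern. A shift in acRIP counts mixes the level of the RNA with its enrichment, and in a bulk library fewer cells carrying a transcript and less of it per cell cannot be told apart.

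**Figure D2:**
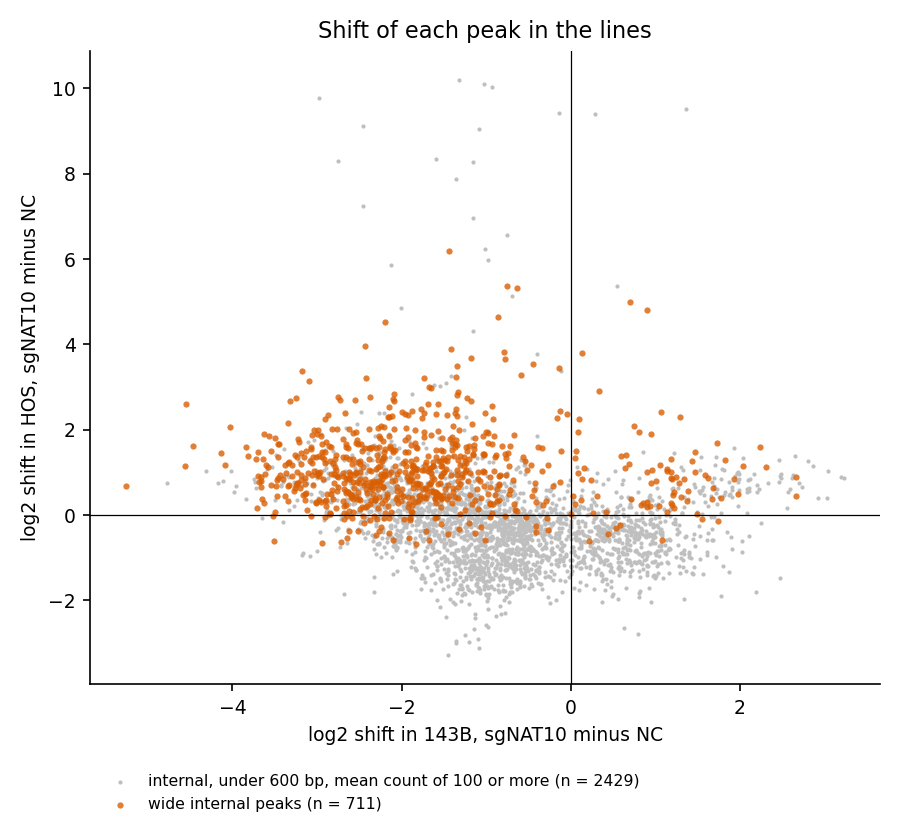
Log2 shift (library labelled sgNAT10 minus NC) in 143B (x axis) and in HOS (y axis), 1 point per peak: 711 wide internal peaks (orange) and, for comparison, 2429 narrower internal peaks with mean counts of at least 100 (grey). The upper left quadrant holds 581 of the wide peaks, and the wide peaks have medians of -1.89 and 0.95.

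Narrower internal peaks of protein-coding genes showed smaller shifts. The 12768 internal peaks under 600 bp had medians of -0.10 for 143B and 0.21 for HOS. Among peaks of at least 100 counts on average, where 34.4% of all peaks were lower by 2-fold or more in 143B, the 575 wide internal peaks had medians of -1.93 and 0.90 and the 2429 narrower ones -0.84 and -0.30. In that range 465 wide internal peaks were lower by 2-fold or more in 143B and 244 higher in HOS (11.2% of all peaks), and 203 were both, where 7.93% of all peaks were. The members kept these directions in each class of mean count. Members with a mean count of 1000 or more had medians of -2.41 and 0.84, and those under 100 had -1.50 and 1.35, whereas narrower internal peaks of the same classes had -0.35 and -0.38, and 0.08 and 0.36.

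Over all internal peaks the 143B medians were lower in each wider class on both sides of the 600 bp limit. In 6 width classes parted at 150, 300, 600, 1000 and 2000 bp, from narrow to wide, the median shift in 143B was 0.20, -0.39, -1.20, -1.67, -1.89 and -2.57. In HOS it was 0.11, 0.22, 0.64, 0.96, 0.92 and 0.99, so that the classes of 600 bp or more lay close together. Among peaks of at least 100 counts on average, the 143B medians were -0.80, -0.72, -1.48, -1.74, -1.91 and -2.57. Only the first step, at 150 bp, went against the falling order in 143B. The HOS medians of these peaks rose at each step: -0.52, -0.36, 0.22, 0.80, 0.90 and 0.99. Of the 155 members of 2000 bp or more, 138 were lower by 2-fold or more in 143B and 1 was higher. Wide peaks outside annotated genes shared the direction in HOS but not in 143B. The 708 peaks of 600 bp or more outside annotated genes had medians of 0.00 in 143B and 0.37 in HOS, with 111 lower by 2-fold or more in 143B and 98 higher in HOS. Of these peaks 95.9% were above 0 in HOS, beside 92.4% of the members and 63.7% of all peaks, and 47.7% were down in 143B and up in HOS. The libraries on which peaks were called are not given in the sources used here, and whether a library with strong signal set the width of a peak was not tested.

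**Figure D3:**
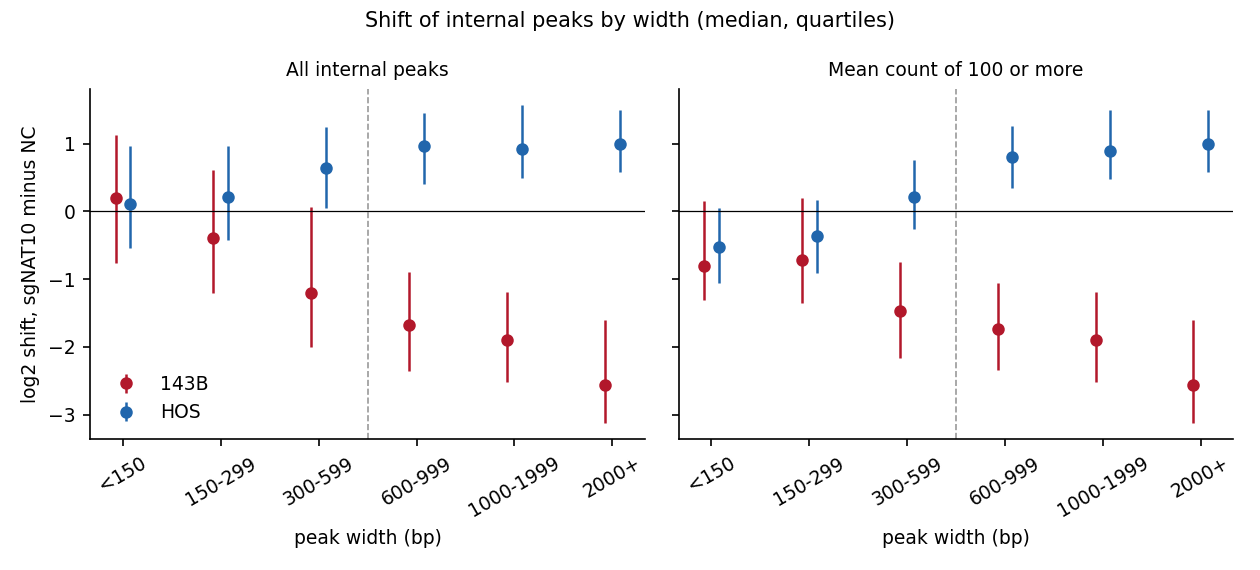
Median log2 shift (library labelled sgNAT10 minus NC) with quartiles as lines, by peak width in bp, for all internal peaks (left) and those with a mean count of 100 or more (right), in 143B (red) and HOS (blue). The dashed line marks 600 bp, and the 143B medians go from 0.20 to -2.57 across all internal peaks while the HOS medians go from 0.11 to 0.99.

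The widest members had the same pattern, with 1 exception. CHCHD6, a subunit of the MICOS complex that shapes mitochondrial cristae, held the widest peak, 14485 bp at chr3:126852566-126867051. It had 7790 and 1244 counts in 143B, and 6257 and 14471 in HOS. The shifts were -3.14 (interval -3.23 to -3.06) in 143B and 0.86 (0.82 to 0.90) in HOS. HPCAL1, a calcium sensor of the hippocalcin family, held a peak of 10655 bp at chr2:10395247-10405902 with 3738, 630, 2846 and 13437 counts and shifts of -3.06 and 1.89. TCF20, a transcriptional co-regulator, held 6310 bp with 5731, 986, 3678 and 9677 counts and shifts of -3.04 and 1.04. In these 3 genes the control libraries lay between the libraries labelled sgNAT10. TOM1, an adaptor of endosomal traffic, held 6043 bp with 1976, 225, 1743 and 8243 counts and shifts of -3.63 and 1.89. In PPP6R2, a regulatory subunit of protein phosphatase 6, a peak of 5740 bp had 2521, 252, 1469 and 4910 counts and shifts of -3.81 and 1.39.

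The exception was NSUN6, an RNA cytosine methyltransferase. Its peak of 6087 bp at chr10:18567433-18573520 had 956, 1352, 443 and 578 counts. The shifts were 0.00 (interval -0.12 to 0.12) in 143B and 0.03 (-0.15 to 0.21) in HOS, and their signs changed with the scaling. It was about 2-fold higher in 143B than in HOS in the controls (log2 difference 0.97).

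Shifts varied less within a gene than among all members. Of the 454 genes, 324 had 1 member, 78 had 2 and 52 had 3 or more. Over the 387 members of the 130 genes with at least 2, the SD of shifts within a gene was 0.76 in 143B and 0.42 in HOS. Among all 711 members the SDs were 1.30 and 0.90, and among the medians of the 130 genes they were 1.01 and 0.91. Peaks of a gene share their transcripts and library, so they are not separate repeats. Of 688 gaps between neighbouring members on a chromosome, 176 were under 10 kb.

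CHCHD6 had the most members, 13, which covered 36667 bp within 60.4 kb of a gene of 256181 bp. All 13 were lower in 143B (-3.69 to -2.00) and higher in HOS (0.50 to 1.72). TWIST2, a bHLH transcription factor of mesenchymal cells, had 11 members over 60.9 kb, most of its 62450 bp. All 11 were lower in 143B (-3.52 to -2.26), while in HOS they ranged from -0.39 to 0.82 around a median of 0.38. Its largest member, at chr2:238866506-238871417, had 7983, 984, 5308 and 6681 counts, with a shift of -3.52 in 143B and of -0.02 in HOS, and the latter turned positive (0.56) with library totals. RTEL1, a DNA helicase that protects telomeres, had 8 members within 20.1 kb, with the smallest spread of these genes: SDs were 0.17 in 143B and 0.14 in HOS around medians of -1.63 and 1.16. HPCAL1 had 9 members with medians of -1.51 and 1.61, all higher in HOS by at least 1.18.

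Members of CDH4, the gene of R-cadherin, differed from one another in 143B. Its 9 members lay over 626.7 kb, and their shifts ran from -2.56 to 1.67 (143B) and from 0.37 to 1.58 (HOS). The peak at chr20:61264077-61265386 had 348 counts in 143B NC and 1569 in 143B labelled sgNAT10 (280 and 462 in HOS). The next, at chr20:61375352-61376278, had 1858 and 444 in 143B (827 and 1626 in HOS). These neighbours thus went in opposite directions in 143B and in the same direction in HOS. The 7 members of NSUN6 all stayed within -0.41 to 0.90 in 143B and -0.39 to 0.82 in HOS.

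**Figure D4:**
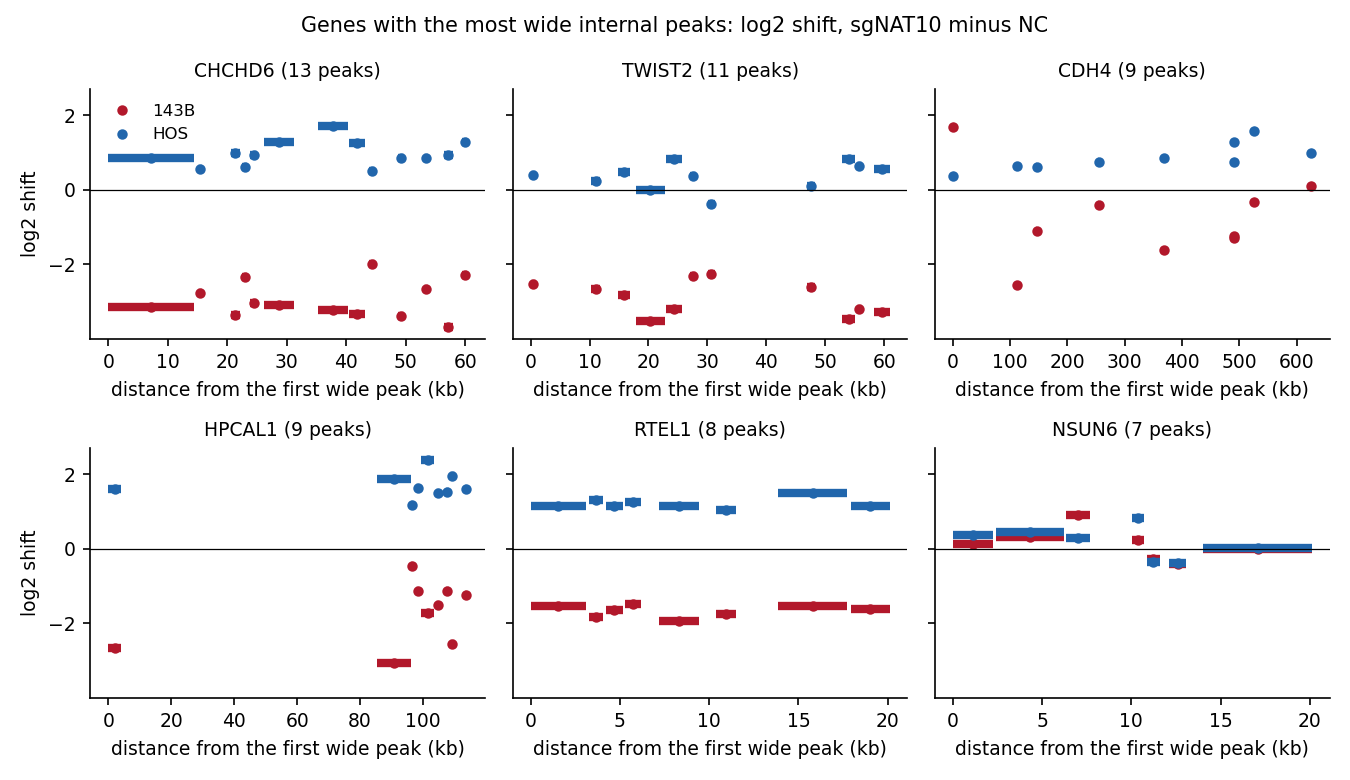
Log2 shift (library labelled sgNAT10 minus NC, y axis) of each wide internal peak in the 6 genes with the most such peaks, against distance in kb from the first wide peak of the gene (x axis). Bars span the peak's width, red for 143B and blue for HOS. Shifts keep apart by line in CHCHD6 (13 peaks), HPCAL1 and RTEL1, and overlap 0 in HOS in TWIST2. In NSUN6 they run from -0.41 to 0.90 in 143B and from -0.39 to 0.82 in HOS.

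Wide peaks were shifted further than other peaks of their own gene, down in 143B and up in HOS. In 399 genes with both kinds, the median shift of the wide internal peaks minus that of the gene's narrower internal peaks was -0.63 in 143B, with 307 genes below 0 and 92 above. In HOS the median difference was 0.31, with 282 genes above 0 and 117 below. Against peaks at the gene's ends (500 bp or less away), in 79 genes, the differences were -0.71 in 143B (59 genes below 0) and 0.47 in HOS (66 genes above). The narrower internal peaks of these 399 genes had medians of -1.08 in 143B and 0.55 in HOS. They were thus shifted too, and beyond the medians of all narrower internal peaks (-0.10 and 0.21).

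Ranked by their weaker line, the 6 most opposed members (down in 143B, up in HOS) among those with a mean count of 100 or more came from 6 genes. SYNE3 (nesprin-3, which ties the nuclear envelope to the cytoskeleton) had a peak at chr14:95418712-95421144 with 673 and 110 counts in 143B and 445 and 5041 in HOS. Its shifts were -3.10 (interval -3.42 to -2.82) and 3.15 (3.01 to 3.29). SORCS2, a receptor of the sortilin family, had 177, 24, 185 and 1502 counts and shifts of -3.31 and 2.66. In both genes the controls were close, and the gap between the libraries labelled sgNAT10 is what the ranking selected. SLC30A4-AS1 had 222, 57, 192 and 3810 counts (-2.43 and 3.95), and reads of an antisense gene and its partner cannot be told apart without the strand setting. ICA1, an autoantigen of islet cells, had 197, 51, 96 and 1153 counts (-2.42 and 3.22). OPRL1, the nociceptin receptor, had 167, 36, 112 and 756 (-2.67 and 2.40), and PDE10A, a cyclic nucleotide phosphodiesterase, 279, 53, 77 and 505 (-2.86 and 2.35). In each of the 6 the controls lay between the libraries labelled sgNAT10, which follows largely from ranking by opposed shifts.

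The 76 members that were higher in both lines included, at the top by the weaker line, a pair in ANO2, which encodes a calcium-activated chloride channel. The peak at chr12:5928446-5929068 had 54, 256, 20 and 85 counts with shifts of 1.73 (1.32 to 2.20) and 1.70 (1.02 to 2.52). The peak at chr12:5931586-5932703 had 184, 641, 49 and 310 counts (1.30 and 2.29). In both ANO2 peaks each library labelled sgNAT10 lay above the NC library of its line, which the choice of this group requires. CHD5, a chromodomain helicase, had 122, 468, 93 and 286 counts (1.44 and 1.26), although the other CHD5 member had -0.57 in 143B. ASS1, the argininosuccinate synthase of arginine synthesis, had 57, 170, 70 and 478 (1.07 and 2.41). LOC124908048, LINC02798, SDK1 and PAX8 were also among the top 10, with PAX8 resting on 3 and 9 counts in 143B. All 10 kept their direction in both lines under the 4 scalings, which follows from their ranking by size of shift. With DESeq2-type factors the shifts of members moved by medians of only -0.086 in 143B and -0.155 in HOS.

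Among the 47 members that were lower in both lines, the shifts in HOS were small. STAG1, a cohesin subunit, had 171, 67, 181 and 145 counts with shifts of -1.83 and -0.67. SLC38A10, an amino acid transporter, had neighbouring peaks at chr17:81248113-81249191 (1756, 322, 3588 and 2900 counts; -2.94 and -0.66) and chr17:81249347-81251789 (3391, 765, 6355 and 5627 counts; -2.64 and -0.53). Its remaining member, 1289 and 1942 counts in HOS, had a HOS shift of 0.24. KIRREL3, an adhesion protein, had 411, 50, 179 and 150 counts (-3.50 and -0.60), and KHSRP, above, -1.67 and -0.59. With library totals the HOS shifts of STAG1, the first SLC38A10 peak, KIRREL3 and KHSRP came to -0.09, -0.08, -0.02 and -0.01, and that of the second SLC38A10 peak turned positive (0.05).

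Only 7 members had a positive shift in 143B and a negative one in HOS, of which 4 had a mean count of 100 or more. HNRNPA2B1 had 1728, 2836, 1892 and 1595 counts with shifts of 0.22 (0.13 to 0.30) and -0.60 (-0.69 to -0.50), although with library totals its HOS shift was -0.02. The metalloprotease gene ADAM12 had 289, 557, 174 and 163 counts (0.45 and -0.44), ZNF469 98, 202, 65 and 67 (0.54 and -0.30) and GSG1L, an AMPA receptor partner, 94, 447, 52 and 60 (1.74 and -0.14). The HOS shifts of these 3 turned positive with library totals.

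In 19 members of 15 genes, at least 80% of the CPM over the libraries lay in HOS labelled sgNAT10. This was 2.67% of members and 2.68% of all peaks. TSHR, the thyrotropin receptor, had 6, 5, 8 and 446 counts, and TMPRSS2, a serine protease of epithelial cells, 3, 2, 2 and 148 in its higher member. ABCG1, a sterol exporter, had the most counts of the 19: 260, 79, 879 and 25864 over 5727 bp, with shifts of -2.20 and 4.53. Others lay in PAX8, SLC30A4-AS1, RET, ALK, CLDN14, KNDC1, GNAS, PLA2G4C, CD74, LINGO2 and SYNE3. The epithelial marker CDH1 was also highest in HOS labelled sgNAT10, as given above, and its part was not tested. Without the 19, the median HOS shift of the members was 0.93.

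The members lay in long genes. The median span of a gene with members was 110.9 kb (quartiles 50.5 and 223.6), beside 78.6 kb (31.2 and 175.9) for genes with narrower internal peaks. Along the 580 members whose gene's strand was known, 112, 151, 126 and 191 fell in 4 equal stretches of the gene, counted from the 5′ end. The last stretch held 32.9%, beside 29.0% of the narrower peaks. Shifts in 143B had medians of -1.71, -1.81, -2.16 and -1.95 from the first stretch to the last. A long noncoding RNA gene overlapped 76 members (10.7%, beside 7.16% of the narrower peaks). Those 76 had a median of -1.76 in 143B, and the 623 members without any second annotated gene had -1.91.

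A larger share of the members than of the narrower internal peaks lay near chromosome ends. Within 5 Mb of the outermost annotated gene of a chromosome lay 286 members (40.2%) and 14.5% of the narrower peaks. Within 1 Mb the shares were 13.2% and 3.89%, and beyond 50 Mb they were 12.1% and 26.4%. Chromosome 16 held 7.03% of the members and 3.44% of the narrower peaks, chromosome 20 held 5.77% and 3.48%, and chromosome 21 held 3.38% and 1.23%. The shifts of the members were alike in both zones: medians were -1.87 and 0.95 within 5 Mb, and -1.92 and 0.96 farther away. For the narrower peaks the 143B median was -0.84 within 5 Mb and 0.03 farther away. These shares are descriptions of peaks, many of which share a gene.

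**Figure D5:**
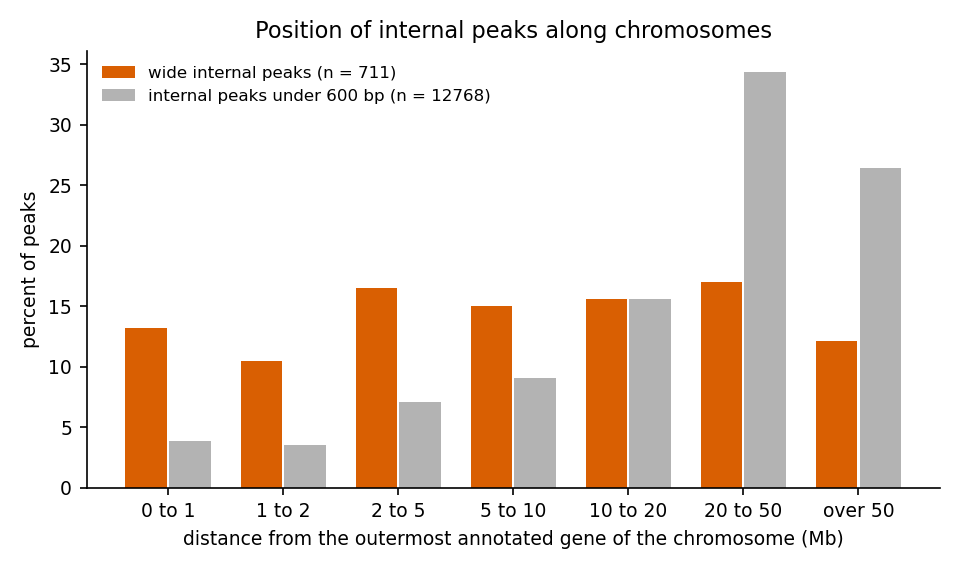
Percent of peaks (y axis) by distance in Mb from the outermost annotated gene of the chromosome (x axis), for the 711 wide internal peaks (orange) and the 12768 narrower internal peaks (grey). Bars of each colour add up to all peaks of that kind, with 13.2% against 3.89% in the first Mb and 12.1% against 26.4% beyond 50 Mb.

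Members were counted in 8 gene lists, with no test between lists. Of the 6717 genes with an assigned peak, 6.76% had members. Of 34 receptor tyrosine kinases, 30 had a peak and 7 had members (among them ALK, EGFR, EPHA2, EPHB2, FGFR3 and RET), with 8 members in all. Their medians were -1.36 in 143B and 1.64 in HOS, and 8 of 8 were above 0 in HOS, as were 92.4% of all members. The EGFR member had 1145, 314, 570 and 1143 counts (-2.36 and 0.65) and the EPHA2 member 1560, 248, 775 and 1270 (-3.14 and 0.36), both lowest in 143B labelled sgNAT10. FGFR3, in contrast, had 17, 22, 25 and 179 (-0.12 and 2.45). Of 40 genes of extracellular matrix and adhesion, 25 had a peak and 3 had members: ADAMTS12, COL5A1 and LAMA5. These 12 members had medians of -2.08 and 1.16. The ADAMTS12 protease gene held 9849, 1109, 13421 and 22400 counts over 5412 bp (-3.65 and 0.39). LAMA5, a laminin chain of basement membranes, had 5 members, of which the widest held 1388, 451, 965 and 6199 counts (-2.12 and 2.33). That is the member with the LAMA5-AS1 start printed above. A COL5A1 member with 426, 613, 174 and 303 counts was the only one of the 12 not lower in 143B (0.03).

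Of 50 chromatin regulators, 41 had a peak and 5 had members, among them ARID1B, HDAC4, KDM2B and KDM6B. All 8 members were lower by 2-fold or more in 143B, as were 77.9% of all members, and the medians were -2.34 and 0.97. KDM6B, a histone demethylase, had 738, 138, 619 and 2195 counts (-2.91 and 1.47). The ARID1B member with the printed window, in a gene of the BAF remodelling complex, had 913, 180, 715 and 1778 (-2.83 and 0.96). Among 39 cytoskeleton genes, 33 had a peak and ACTN1 and TNS3 had 1 member each (-0.95 and 0.27, and -2.16 and 0.22). Of 40 splicing factor genes 34 had a peak, and HNRNPA2B1 alone had a member. Of 36 genes of translation and ribosome assembly 27 had a peak and 0 had a member. Of 40 growth signalling genes 29 had a peak, and NOTCH1 had 1 member with 141, 42, 110 and 364 counts (-2.21 and 1.37). Of 28 genes listed for long coding exons 21 had a peak, and ZNF469 alone had members, 4, with medians of -1.24 and 0.97.

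Across the lines, no member passed the edgeR quasi-likelihood test with cell line as a block. Of 706 members that passed the filter on low counts, 0 had an adjusted p under 0.05, beside 0 (0%) of 24467 peaks tested. At an unadjusted p under 0.05 there were 3 members higher and 3 lower, beside 3.86% of all peaks tested. The design has 1 residual degree of freedom, and the lowest adjusted p of a member was 0.981. The DESeq2 Wald test and limma-trend also called 0 members. They had 15 and 11 members at an unadjusted p under 0.05, beside 2.04% and 4.45% of all peaks tested. The 3 higher members at that level were RBFOX3, PAX8 and SYT3 (log2 changes 2.01, 3.39 and 1.80), and the 3 lower ones were the SLC38A10 pair (-1.58 and -1.80) and a TWIST2 peak (-1.77, SE 0.80). The test asks for a change shared by the lines, and 581 members had opposed signs.

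Leaving out 1 library changed the calls. These fits have no block, since the block would leave no residual degree of freedom, and they take the lone library of a group to vary like the others. Without 143B labelled sgNAT10, 26 members were higher at an adjusted p under 0.05 (2.43% of all peaks tested were) and 0 were lower (0.0969%). Of the 26, 5 (in TSHR, RET, ALK and a pair in TMPRSS2) passed the filter on low counts in this fit but not with all libraries. Their 1 high library admitted them, so their calls are no support. The other 21 included PAX8 (log2 change 5.38) and ABCG1 (4.94). They compare 1 HOS library with both controls, with no measure of spread among libraries labelled sgNAT10, so these calls are no support either. Without HOS labelled sgNAT10, 8 members were lower (0.289% of all peaks tested) and 0 higher. These were in RIN2 (log2 change -5.12), SFMBT2, TMEM177, TBC1D22A, CHCHD6 (a pair), MAN2B2 and ZNF107, and likewise rest on 1 library labelled sgNAT10. Without either control, 0 members passed. The calls thus rest on which library labelled sgNAT10 is kept.

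At the width limit itself the values were mixed. Just inside lay peaks in PLA2G4C (600 bp; shifts -0.58 and 3.28), NHS (600 bp; -0.40 and 0.30) and ARHGAP40 (601 bp; -1.49 and 1.29). Just outside, at 598 bp, lay peaks in EML6 (-2.09 and -0.62), KLHL12 (-2.29 and 1.15) and PJA2 (-0.48 and 1.48).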

How the data were processed

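The deposited tables hold raw read counts per peak interval, which the authors gave in a table for each cell line over 31395 shared intervals. Columns name the genotype and not the assay. As the names of the tables say RIP, the columns were read as the 4 acRIP libraries. FastQC, STAR, SAMtools, deepTools and GRCh38 are named per the submitters' processing notes. The peak caller, the libraries it ran on, the counter, the strand setting and the treatment of reads mapping to several places are not given in the sources used here, nor is whether starts count from 0 or 1, so positions are printed as deposited. Poly(A) RNA was fragmented before pull-down, per the labels' protocols.

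Peaks were assigned to gene spans of a RefSeq GRCh38 table (59792 genes, 20052 protein-coding). Sequences come from RefSeq start windows (GRCh38.p14) and miRNA entries. No genome was used here, so whole peaks have no sequence.

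TMM factors came from edgeR 4.0.16 (R 4.3.3) over peaks passing filterByExpr (minimum count 10, minimum total 15), with totals over all peaks as library sizes. Shifts are differences in log2 CPM (prior count 1). Their 95% intervals are exact conditional binomial bounds, and cover counting error only, since reads are not independent molecules. The edgeR quasi-likelihood test was fitted on all peaks, with a block for cell line and Benjamini-Hochberg adjustment at 0.05. DESeq2 1.42.0 and limma 3.58.1 were alternatives. The edgeR fit was also run on simulated data as a check of the code. How often it could call a change at the spread of these data is not reported here. With 1 library per group, nothing says how far separate cultures would vary.

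The members and gene lists were chosen with earlier results of these data known. Genes were named by rule: the 10 members highest in CPM per kb, the 6 widest, the 10 highest and 10 lowest shifted the same way in both lines and 6 each way of those shifted in opposite ways (mean count of 100 or more, ranked by the smaller absolute shift), the 6 genes with the most members and 3 members on each side of the width limit. Other genes named were chosen after their values were seen. Some genes that these rules name are not reported here.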

Additional observations from a re-analysis of the deposited data

Results flagged for a closer look

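The shift of wide internal peaks went opposite ways in the lines: the median was -1.885 in 143B and 0.949 in HOS. The same held within genes, where wide internal minus narrower internal peaks gave a median difference of -0.633 in 143B and 0.311 in HOS. Each line has 1 library per genotype, so the difference between lines was not tested. The 143B library labelled sgNAT10 is also the one that stood apart in correlation, and its part in these values was not tested.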

How the results depend on the processing

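The main fit pairs the genotypes within each line through the cell line block, and without the block 0 members passed the edgeR test as well. The median shift in 143B kept its direction in all 10 alternatives (-2.149 to -1.556), and that in HOS in all 11, with 1.53 instead of 0.949 under library totals. Members higher by 2-fold or more in HOS came to 548 instead of 334 under library totals. That scaling added a median of 0.578 to the HOS shifts of members. The share of all peaks past 2-fold under it was not computed. Of the 362 members of 1000 bp or more, 303 were lower and 19 higher by 2-fold or more in 143B, and 163 higher by as much in HOS. Of the 575 that averaged at least 100 counts, 27 were higher by 2-fold or more in 143B, beside 11.3% of all peaks of that depth. These last counts rest on fewer peaks by construction. With 1 library left out (added after the data were seen), between 0 and 26 members passed the edgeR test: 26 without 143B labelled sgNAT10 (5 of them left out by the filter on low counts when all libraries are used), 8 without HOS labelled sgNAT10. TMM factors estimated without 1 library of the other line gave medians of -2.136 and -2.144 in 143B, and 0.958 and 0.685 in HOS. Leaving out the members over mitochondrial pseudogenes gave -1.897 and 0.96. The within-gene differences kept their direction in all 3 alternatives in each line. Low counts limit single members under a mean of 100, and no spike-in is named, so a change shared by all RNA cannot be seen.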
